A study of Mus musculus with 10 samples.

Results

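The RNA-seq comparison described here set RAW264.7 cells given **1** at 32 µM and LPS against cells given solvent and LPS. It compared 4 of the 10 libraries of the series, 2 per group, chosen by their treatment labels, and took in every gene of the table. All 10 libraries entered the fit, so the spread behind each p-value and standard error is pooled over 5 groups. RAW264.7 is a mouse macrophage line, and the other libraries came from the same line. Compound **1** is a hexadec-7-enoic acid with an *E* double bond and a 9-keto group, and so an α,β-unsaturated ketone, obtained from marine cyanobacteria. Cells were plated at 250000 per well and received **1** or DMSO for 1 h before LPS at 1 µg/mL. RNA was taken after 12 h. The control group, DMSO + LPS, had 0.5% DMSO with LPS. Both groups therefore carried LPS, and the labels name no genetic change in either. No library had **1** without LPS, so what **1** does to resting cells was not measured. Libraries with 0.5% DMSO and no LPS (DMSO) and with **1** at 10 µM and LPS are given beside some results as levels only, since the comparison at 10 µM shares the same controls. The fifth group had **1** at 3.2 µM and LPS and otherwise served only in the fit and the library checks. The labels call the 2 libraries of a group biological replicates of 1 cell line, and the p-values measure the spread between such samples.

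In unstressed cells the adaptor Keap1 holds the transcription factor Nrf2 for degradation. Electrophiles modify cysteines of Keap1, and Nrf2 then accumulates and binds antioxidant response elements in front of genes for glutathione synthesis, quinone reduction and NADPH supply. LPS is sensed by Tlr4 and acts through 2 adaptor branches. Myd88 leads to NF-κB and AP-1 and the genes of cytokines, chemokines and Nos2. Trif leads to Irf3 and interferon β, whose receptor drives the interferon-stimulated genes through JAK kinases and STAT factors.

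The 4 libraries held between 47162631 and 58976377 counts, within the range of 45966803 to 58976377 over the series. Macrophage identity was checked with 12 markers, all of which were detected. Their summed level, in CPM (counts per 1000000, unscaled here), was 11000.0 and 11100.0 in DMSO + LPS and 9450.0 and 8610.0 at 32 µM. All libraries are from 1 macrophage line, and in bulk RNA fewer cells of a type and less RNA per cell cannot be told apart. Of the 12 markers, 8 lay below 0 and 4 above, with a median log2 fold change of −0.13. Of these markers, Fcgr1, Itgam and Lyz2 were called lower (edgeR adjusted p below 0.05 and a 1.5-fold change or more), against 2.91% of all genes tested, and the other 9 were not called. Fcgr1, the high-affinity IgG receptor, had 55.7 and 55.4 CPM in DMSO + LPS and 18.6 and 15.5 CPM at 32 µM (log2 fold change −1.70 ± 0.094, adjusted p = 2.04e-05). Lyz2 was no longer called without replicate 2 at 32 µM. Osteoclast markers summed to 238.0 and 243.0 CPM in DMSO + LPS and to 192.0 and 185.0 at 32 µM. Of 7 tested members, 3 were called lower (Mmp9, Ocstamp and Acp5), against 2.91% of all genes tested. The other 4 were not called, and 2 of the 7 lay above 0, up to 0.64. Neutrophil markers summed to 6.56 and 6.40 CPM in DMSO + LPS and 2.66 and 1.72 CPM at 32 µM, with S100a8 the single call, lower, which was lost without either DMSO + LPS library or replicate 2 at 32 µM. Summed levels lay between 7.59 and 10.8 CPM for T cell markers and between 9.09 and 11.4 CPM for endothelial markers, with 0 called by edgeR or by DESeq2 on 10 libraries and 1 gene of each at an unadjusted p under 0.05. Each of these sums and the neutrophil sum came mostly from 1 gene. Over the 4 libraries Lck had 356 to 600 counts, Vwf 405 to 538 and S100a8 63 to 369. Markers of B cells summed to at most 0.445 CPM in any library of the series, while fibroblast and epithelial markers reached at most 0.283 and 0.0404 in the 4 libraries compared. In replicate 1 at 10 µM, which is in the fit and is given as a level below, they summed to 7.65 and 39.8 CPM, and epithelial markers summed to 5.59 CPM in replicate 1 at 3.2 µM. A list of features that hold ribosomal RNA or a related abundant noncoding RNA, called ribosomal RNA features here, had 8 members in the table, of which 6 were tested. The 6 were Gm42418, Lars2, Gm26917, mt-Rnr1, mt-Rnr2 and Rn7sk, the last of which is the 7SK small nuclear RNA and no ribosomal RNA. The 8 together made up 3.33% of counts in the second library at 32 µM (95% Wilson interval 3.33% to 3.34%, counting error only). They held 0.276% in replicate 1 and 0.356% and 0.365% in DMSO + LPS. None of the 6 tested was called by edgeR, with an unadjusted p under 0.05 for 4 of them, while DESeq2 on 10 libraries called 1, edgeR with no count filter called 4 and edgeR without replicate 1 at 32 µM called all 6. Removing all 8 before scaling left every one of the 591 calls of the whole comparison in place and gave 593 in all.

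Of 14172 genes tested, 591 were called different at 32 µM, that is, changed at least 1.5-fold with a Benjamini-Hochberg adjusted p below 0.05 in edgeR's quasi-likelihood test. That is 4.17% of the genes tested. The lower genes, 412 or 2.91% of those tested, outnumbered the 179 higher ones, or 1.26%. The lower genes also moved further, with a median log2 fold change of −1.15 against 0.89 for the higher genes and 0.0082 for all genes tested. At least 4-fold changes were called for 47 lower and 14 higher genes. Genes called lower took up 6.34% and 6.31% of the scaled counts in DMSO + LPS and 3.04% and 2.98% at 32 µM. Genes called higher took up 1.40% and 1.41% in DMSO + LPS and 2.68% and 2.63% at 32 µM. For each of the 591 genes both libraries of one group lay above both of the other, which held for 50% of all genes tested. Protein-coding genes made up 378 of the lower and 168 of the higher calls. The smallest p that an exact permutation test of 2 libraries against 2 allows is 0.333, and the p-values given therefore depend on edgeR's pooling of the spread across genes and groups.

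**Figure D1:**
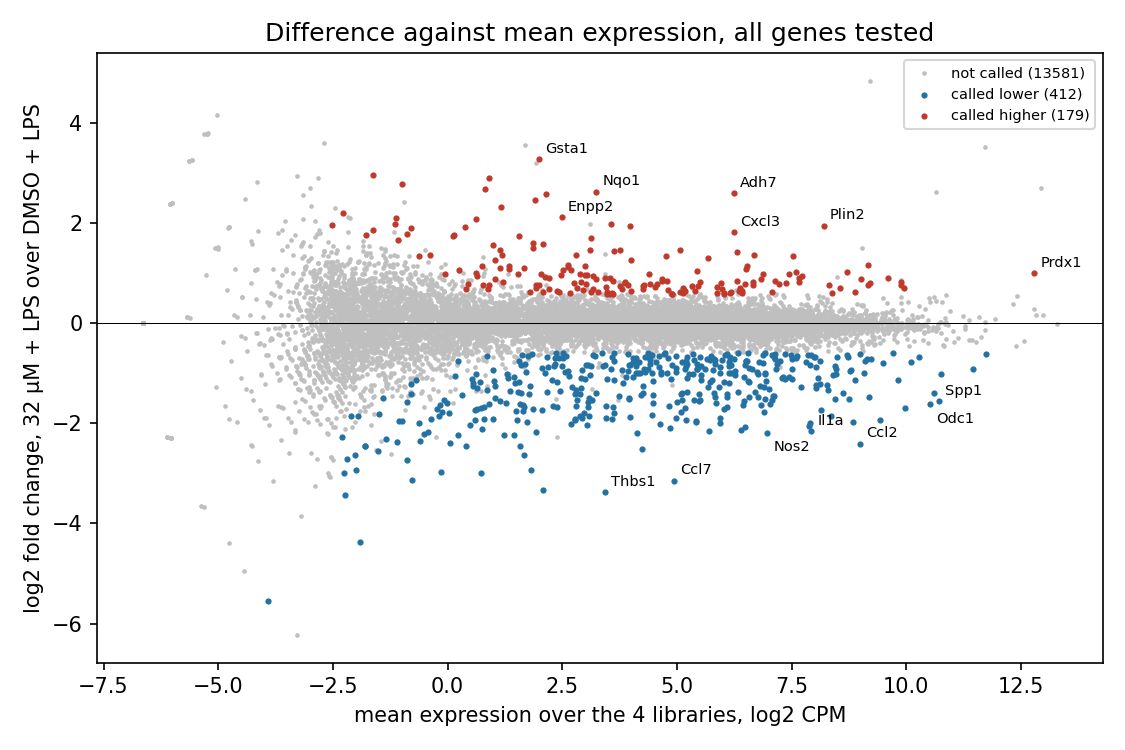
Each point is 1 of the 14172 genes tested, with its mean over the 4 libraries in log2 CPM on the x axis and its log2 fold change, 32 µM + LPS over DMSO + LPS, on the y axis. The 412 genes called lower (blue) reach further from 0 than the 179 called higher (red) at mid to high expression, where Ccl2 and Ccl7 mark the lower side and Adh7 and Plin2 the upper.

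Among called genes with a mean of at least 5 CPM over the 4 libraries, Thbs1 had the lowest fold change. Thbs1 encodes thrombospondin 1, a matrix glycoprotein that binds CD36 and CD47, and had 19.8 and 19.3 CPM in DMSO + LPS and 1.94 and 1.84 CPM at 32 µM (log2 fold change −3.37 ± 0.10, adjusted p = 4.7e-06). It was listed at 0 in both DMSO libraries. The gene at the other end was Nqo1, the quinone reductase commonly used as a readout of Nrf2, with 2.65 and 2.58 CPM in DMSO + LPS and 16.3 and 16.1 CPM at 32 µM (log2 fold change 2.63 ± 0.11, adjusted p = 6.36e-06). DMSO without LPS held 0.306 and 0.37 CPM of Nqo1. Adh7, an alcohol dehydrogenase that also oxidizes retinol, was close behind with 21.6 and 21.1 CPM in DMSO + LPS and 129.7 and 130.0 CPM at 32 µM (log2 fold change 2.61 ± 0.064, adjusted p = 5.21e-07). At far higher expression, Prdx1, a peroxiredoxin that reduces hydrogen peroxide, had 4654 and 4749 CPM in DMSO + LPS and 9651 and 9179 CPM at 32 µM (log2 fold change 1.00 ± 0.057, adjusted p = 2.58e-05). Spp1, which encodes the secreted phosphoprotein osteopontin, had closely matching replicates, with 2509 and 2508 CPM in DMSO + LPS and 852 and 855 CPM at 32 µM (log2 fold change −1.55 ± 0.032, adjusted p = 4.07e-07). Both libraries at 32 µM lay below the 1124 and 1119.6 CPM of DMSO. CPM elsewhere are scaled by TMM and are not per transcript length, so they compare 1 gene between libraries and not genes with each other. The ± values are approximate standard errors, the size of the log2 fold change divided by the square root of edgeR's F statistic.

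CC chemokines, which attract monocytes and T cells, were lower almost throughout. Of 18 CC chemokines listed, 11 were tested, 9 were called lower and 0 higher, with a median log2 fold change of −1.49. The other 7 were too low to test. Ccl2, the main attractant of Ccr2-bearing monocytes, had 844 and 862 CPM in DMSO + LPS and 162 and 160.3 CPM at 32 µM (log2 fold change −2.41 ± 0.041, adjusted p = 2.27e-07). DMSO held 22.8 and 23.3 CPM and 10 µM 414 and 418 CPM. Its neighbour and close relative Ccl7 had 56.4 and 52.9 CPM in DMSO + LPS and 5.5 and 6.86 CPM at 32 µM (log2 fold change −3.15 ± 0.11, adjusted p = 3.29e-06). Neither gene's groups came near overlap. Ccl12 and Ccl17, under 2 CPM, had 1.22 and 0.852 against 0.123 and 0.111 CPM and 0.768 and 0.767 against 0.245 and 0.0442 CPM, in the order DMSO + LPS and 32 µM. The call on Ccl17 was lost without either DMSO + LPS library or replicate 2 at 32 µM and in the fits restricted to 4 libraries. The inflammatory chemokines Ccl3, Ccl4, Ccl6, Ccl9 and Ccl22 were called lower as well, with log2 fold changes between −1.53 and −0.92. Ccl5 and Ccl25 were not called, with −0.40 ± 0.25 and −0.33 ± 0.15.

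The CXC list, which also holds Cx3cl1, split. Of 13 listed, 8 were tested, 2 were called lower and 1 higher (median −0.69). The Cxcr3 ligands Cxcl10 and Cxcl11, which are interferon-inducible, were lower. Cxcl10 had 67.7 and 69.3 CPM in DMSO + LPS and 18.2 and 16.7 CPM at 32 µM (log2 fold change −1.97 ± 0.091, adjusted p = 8.74e-06), and Cxcl11 had a log2 fold change of −1.36 ± 0.15. The third Cxcr3 ligand, Cxcl9, had −2.72 ± 0.76 and did not pass (adjusted p = 0.0657). Cxcl3, a neutrophil attractant that binds Cxcr2, went the other way. It had 31.9 and 35.5 CPM in DMSO + LPS and 110.3 and 127 CPM at 32 µM (log2 fold change 1.82 ± 0.10, adjusted p = 7.28e-05), was listed at 0 in DMSO and had 66.7 and 77.1 CPM at 10 µM. Its relative Cxcl2 had a log2 fold change of 0.44 ± 0.12 and was not called (adjusted p = 0.0634). Pf4 (platelet factor 4, or Cxcl4) was not on the list and was also called higher, with 3.58 and 4.26 CPM in DMSO + LPS and 11.1 and 8.94 CPM at 32 µM (log2 fold change 1.36 ± 0.17, adjusted p = 0.0019). The median of the 8 listed genes was −0.36 without replicate 2 at 32 µM and turned to 0.18 when genes under a mean of 5 CPM were left untested.

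Of 40 cytokines listed, 38 were tested, 16 were called lower and 1 higher (median −0.78). The interleukin 1 family took part on both its activating and its inhibiting side. Il1a, the alarmin interleukin 1α, had 402 and 393 CPM in DMSO + LPS and 91.4 and 87.7 CPM at 32 µM (log2 fold change −2.15 ± 0.048, adjusted p = 4.07e-07). Il1b had 1529 and 1541 CPM in DMSO + LPS and 479.8 and 471 CPM at 32 µM (log2 fold change −1.69 ± 0.044, adjusted p = 5.43e-07). Il1rn, the receptor antagonist that blocks both, had 2286 and 2241 CPM in DMSO + LPS and 873 and 841 CPM at 32 µM (log2 fold change −1.40 ± 0.043). Il6, which drives the acute-phase response, had 94.7 and 99.0 CPM in DMSO + LPS and 23.2 and 28.9 CPM at 32 µM (log2 fold change −1.89 ± 0.12, adjusted p = 0.000106). Il10, an anti-inflammatory cytokine, was also lower, with 10.8 and 10.9 CPM in DMSO + LPS and 4.9 and 5.11 CPM at 32 µM (log2 fold change −1.12 ± 0.17, adjusted p = 0.00425). Tnf stood apart at high expression. It had 1396 and 1422 CPM in DMSO + LPS and 1239.5 and 1263 CPM at 32 µM, a log2 fold change of −0.17 ± 0.036 that passed the adjusted p (0.0212) but not the 1.5-fold limit. The groups did not overlap for Tnf, and the DMSO level was 27.6 and 28.4 CPM. Members of the interleukin 36 group went in opposite directions. Il1f6 (interleukin 36α), which is not on the list and so not among the 16, had 10.3 and 10.4 CPM in DMSO + LPS and 2.82 and 2.32 CPM at 32 µM (log2 fold change −2.01 ± 0.14, adjusted p = 0.000195). Il1f9 (interleukin 36γ), the only cytokine called higher, had 32.8 and 33.5 CPM in DMSO + LPS and 52.1 and 58.6 CPM at 32 µM (log2 fold change 0.74 ± 0.072, adjusted p = 0.000433). The lowest cytokine by fold change, Il33 (−4.37 ± 0.85), rested on less than 1 CPM in every library and was not called by DESeq2 or without any 1 of the 4 libraries.

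**Figure D2:**
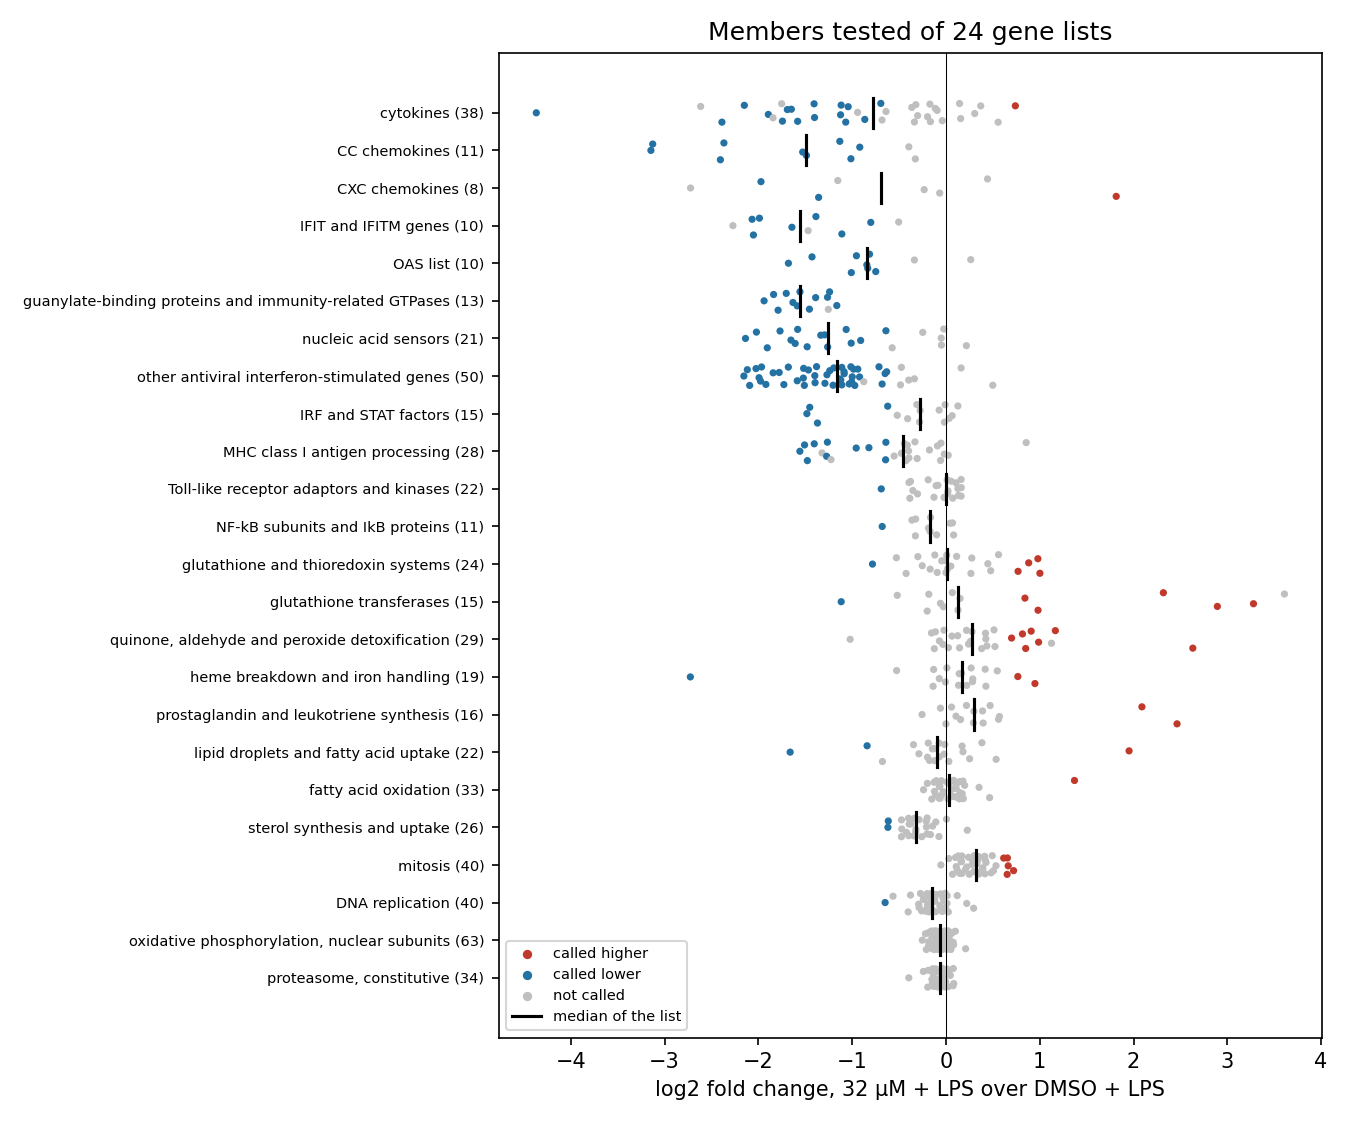
Each point is the log2 fold change, 32 µM + LPS over DMSO + LPS, of 1 tested member of the gene list named on the y axis, with the number tested in parentheses and a black line at the list's median. The cytokine, chemokine and interferon lists lie mostly left of 0 with blue points (called lower), the redox lists carry red points (called higher) beside many uncalled members, and the grey point farthest right is Gsta4, which was not called.

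The arginine list joins 3 uses of this amino acid, and 5 of its 21 tested members were called lower and 1 higher (median −0.16). The median was −0.095 without replicate 2 at 32 µM and −0.068 when genes under a mean of 5 CPM were left untested. Nos2, the inducible nitric oxide synthase, had 209.6 and 202 CPM in DMSO + LPS and 44.8 and 45.6 CPM at 32 µM (log2 fold change −2.19 ± 0.089, adjusted p = 5.41e-06). It had 0.0340 and 0 CPM in DMSO and 109 and 113 CPM at 10 µM. Slc7a2, the inducible arginine transporter, had 9.83 and 10.8 CPM in DMSO + LPS and 5.62 and 5.91 CPM at 32 µM (log2 fold change −0.84 ± 0.20, adjusted p = 0.0342), a call lost on leaving out any 1 of the 4 libraries. Odc1, the first enzyme of polyamine synthesis, had 2222 and 2191 CPM in DMSO + LPS and 722 and 723 CPM at 32 µM (log2 fold change −1.61 ± 0.038, adjusted p = 5.21e-07), and Sat1, which acetylates polyamines for export, had a log2 fold change of −0.76 ± 0.054. Ass1, which rebuilds arginine from citrulline together with Asl, was the single higher gene, with 6.13 and 6.84 CPM in DMSO + LPS and 25.9 and 24.2 CPM at 32 µM (log2 fold change 1.95 ± 0.10, adjusted p = 1.41e-05). Asl had a log2 fold change of 0.11 ± 0.057 and was not called.

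Prostaglandin and leukotriene genes gave 2 higher and 0 lower calls among 16 tested (median 0.30). Over all genes tested, 1.26% were called higher and 2.91% lower. Ptgs1, the constitutive cyclooxygenase, had 1.41 and 0.873 CPM in DMSO + LPS and 6.34 and 6.41 CPM at 32 µM (log2 fold change 2.46 ± 0.21, adjusted p = 0.000216), against 11.2 and 10.0 CPM in DMSO. Pla2g7, a phospholipase that degrades platelet-activating factor, had 0.681 and 0.469 CPM in DMSO + LPS and 2.39 and 2.54 CPM at 32 µM (log2 fold change 2.09 ± 0.26, adjusted p = 0.0018). Both lay below 5 CPM on average. Ptgs2, the inducible cyclooxygenase, had 4578 and 4315 CPM in DMSO + LPS and 5328 and 6327 CPM at 32 µM, and its difference of 0.39 ± 0.11 did not pass (adjusted p = 0.079). The acute-phase list had 4 of 12 tested members lower and 0 higher. These included Lcn2, an iron-siderophore binding protein (−1.93 ± 0.12), Saa3, a serum amyloid (−1.07 ± 0.17), and Wfdc17, a small secreted protein with 31.9 and 32.1 CPM in DMSO + LPS and 6.89 and 4.27 CPM at 32 µM (log2 fold change −2.52 ± 0.31, adjusted p = 0.00153).

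Among the groups of lists joined here, interferon-stimulated genes formed the largest block. Across 5 lists (IFIT and IFITM genes, the OAS list, guanylate-binding proteins and immunity-related GTPases, nucleic acid sensors, and other antiviral genes), 104 genes were tested. Of these, 85 were called lower, 0 were called higher and 4 lay above 0, with a median log2 fold change of −1.26. The medians of the 2 libraries at 32 µM against the DMSO + LPS mean were −1.17 and −1.18. These 85 genes were 20.6% of all genes called lower. Ifit3, of the same family as Ifit1, had 145 and 143 CPM in DMSO + LPS and 34.0 and 34.7 CPM at 32 µM (log2 fold change −2.07 ± 0.045, adjusted p = 4.07e-07). Zbp1, a sensor of Z-form nucleic acid that can trigger necroptosis, had 137 and 138 CPM in DMSO + LPS and 32.9 and 29.7 CPM at 32 µM (log2 fold change −2.14 ± 0.068, adjusted p = 1.91e-06). Mx2, a dynamin-like antiviral GTPase, had 46.6 and 46.1 CPM in DMSO + LPS and 11.0 and 10.7 CPM at 32 µM (log2 fold change −2.09 ± 0.052, adjusted p = 5.21e-07). In all 3 genes the libraries at 32 µM lay above DMSO, where Ifit3 had 4.08 and 4.26, Zbp1 4.76 and 4.46 and Mx2 3.09 and 3.26 CPM.

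The guanylate-binding proteins and immunity-related GTPases, which attack vacuoles of intracellular pathogens, had 12 of 13 tested members lower, with log2 fold changes from −1.94 to −1.16. Ifi47, one of them, had 33.6 and 34.5 CPM in DMSO + LPS and 8.81 and 10.2 CPM at 32 µM (log2 fold change −1.84 ± 0.082, adjusted p = 7.83e-06). IFIT and IFITM genes had 7 of 10 lower and the same median of −1.56 as the former list. The OAS list, whose synthetases make a second messenger of antiviral defence, had 8 of 10 lower and a smaller median of −0.84. Oasl2 was the lowest of them, with 107 and 102 CPM in DMSO + LPS and 35.3 and 29.9 CPM at 32 µM (log2 fold change −1.68 ± 0.078, adjusted p = 8.94e-06). Nucleic acid sensors had 15 of 21 lower (median −1.26), including Ifi204 and Ifi209 of the HIN-200 DNA sensors, at −1.77 ± 0.072 and −2.02 ± 0.16. Of 50 other antiviral genes 43 were lower (median −1.17). Ifi44l led these with 83.7 and 84.7 CPM in DMSO + LPS and 18.1 and 19.7 CPM at 32 µM (log2 fold change −2.15 ± 0.11, adjusted p = 1.27e-05). Many of these genes are closely similar paralogs, such as Ifit3 and Ifit3b or the Trim30 and Oas1 genes, and reads may have been split between them.

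On the chromosomes (GRCm38 coordinates) there were 9 runs of at least 4 neighbouring tested genes called in the same direction, with 41 genes, and all 9 were lower. The longest, at chr11:83572919-83706268, held 6 genes (Ccl9, E230016K23Rik, Ccl6, Ccl3, Ccl4, Wfdc17) with a median log2 fold change of −1.31. A second chemokine run on the same chromosome, chr11:81985406-82103400, held Gm11419, Ccl2, Ccl7, Ccl12 (median −2.84). The HIN-200 cluster at chr1:173468485-173698395 gave Ifi206, Ifi214, Ifi213, Ifi209, Ifi208 (median −1.91), and chr7:104338754-104507849 gave Trim12c, Trim30b, Trim30c, Trim30a, Trim30d (median −1.68). The Ifit run lay at chr19:34550694-34613401 (median −1.82) and the Gbp run at chr3:142530342-142638008 (median −1.59). The other 3 runs held Phf11 genes on chromosome 14, Oas genes on chromosome 5 and 4 gene models without established names on chromosome 7. Most genes of a run are relatives with shared sequence and are not independent of each other.

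Promoters were searched for the interferon-stimulated response element, taken as the letters GAAA, any 2 bases and GAAA again, on either strand. The windows ran from 250 bases before to 50 bases after each RefSeq start (GRCm38.p6), and a gene counted once over its starts. Printed are the 250 bases before the start. The 3 genes shown have the smallest p among genes called lower at 5 CPM or more with a match before the start. The windows lie at chr5:104434861-104435110 (plus strand) for Spp1, chr19:34583279-34583528 (plus strand) for Ifit3 and chr19:34607707-34607956 (plus strand) for Ifit3b, each given 5′ to 3′ in the direction of transcription. Capitals mark the matches, which here are all on the other strand.
Spp1: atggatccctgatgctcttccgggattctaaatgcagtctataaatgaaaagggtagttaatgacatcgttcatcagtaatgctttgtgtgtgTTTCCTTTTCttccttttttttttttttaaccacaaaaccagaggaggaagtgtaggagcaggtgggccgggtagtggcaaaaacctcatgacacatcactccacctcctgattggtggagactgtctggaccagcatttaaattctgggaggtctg
Ifit3: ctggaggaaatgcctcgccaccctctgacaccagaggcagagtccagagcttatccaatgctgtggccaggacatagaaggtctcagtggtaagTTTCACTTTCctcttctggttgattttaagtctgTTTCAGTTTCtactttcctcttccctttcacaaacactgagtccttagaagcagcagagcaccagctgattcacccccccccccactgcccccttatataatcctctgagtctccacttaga
Ifit3b: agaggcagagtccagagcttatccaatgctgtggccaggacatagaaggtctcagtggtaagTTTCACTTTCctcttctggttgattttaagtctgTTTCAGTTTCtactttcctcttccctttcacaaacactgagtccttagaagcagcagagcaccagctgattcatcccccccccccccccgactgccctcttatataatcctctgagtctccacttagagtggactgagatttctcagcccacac

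The match began 157 bases before the start in Spp1, while Ifit3 had matches at 156 and 122 bases and Ifit3b at 188 and 154. In both Ifit genes the matches stand in the same order and spacing within nearly the same letters. Of the 412 genes called lower, 298 had such a window, and 23.2% of these held the element, against 1.41% of 142 genes called higher, 3.92% of 10066 genes tested and 3.99% of 27025 genes in all, each time counting only genes with a RefSeq promoter window. Among called members of the 5 interferon lists the share was 58.0% (40 of 69), and among other genes called lower it was 12.7% (29 of 229). The NF-κB letters, GGGA, any 2 bases and TTCC, were in 5.03% of lower, 1.41% of higher and 1.88% of tested genes. These shares describe letters within the windows and do not show that a factor bound there.

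Upstream of these genes, 1 of 9 tested genes for interferon β, its receptors and JAK kinases and 4 of 15 IRF and STAT genes were called, against 4.17% of all genes tested. Ifnb1, interferon β itself, was scarce after 12 h, with 1.05 and 1.24 CPM in DMSO + LPS and 0.245 and 0.243 CPM at 32 µM (log2 fold change −2.21 ± 0.30, adjusted p = 0.00241). Its receptor genes Ifnar1 and Ifnar2 and the kinases Jak1 and Tyk2 were not called, and Ifnb1 was the single call of that list. The 4 called IRF and STAT genes were all lower (median of the list −0.28). Irf7, the inducible amplifier of interferon production, had 849 and 876 CPM in DMSO + LPS and 317 and 299 CPM at 32 µM (log2 fold change −1.48 ± 0.063, adjusted p = 5.83e-06). Stat2 had 204 and 193 CPM in DMSO + LPS and 71.5 and 73.7 CPM at 32 µM (log2 fold change −1.45 ± 0.051, adjusted p = 3.09e-06). Irf3, which acts first, was at 0.07 ± 0.10 and was not called.

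Of 14 receptors and co-receptors for microbial products tested, 3 were lower and 1 higher. Tlr4 itself was not called (0.37 ± 0.12). The endosomal RNA sensors Tlr3, Tlr7 and Tlr8 were lower, with 50.8 and 47.8 CPM in DMSO + LPS and 16.9 and 20.2 CPM at 32 µM for Tlr3 (log2 fold change −1.41 ± 0.10, adjusted p = 9.58e-05). The call on Tlr7 (−0.64 ± 0.11) was lost without replicate 1 of either group. Tlr13, a sensor of bacterial ribosomal RNA, was higher with 59.7 and 53.3 CPM in DMSO + LPS and 94.7 and 109 CPM at 32 µM (log2 fold change 0.85 ± 0.10, adjusted p = 0.00153). Among 22 adaptors and kinases Ikbke was the single call (−0.69 ± 0.11), near the 4.17% called over all genes tested. The call on Ikbke was lost without replicate 1 of DMSO + LPS. The 11 NF-κB subunits and IκB proteins had 1 call, Nfkbiz, a nuclear IκB protein needed for secondary response genes such as Il6 and Lcn2. It had 172 and 169.7 CPM in DMSO + LPS and 103 and 109.9 CPM at 32 µM (log2 fold change −0.68 ± 0.076, adjusted p = 0.000941). Rela was at 0.08 ± 0.051 with 98.0 and 101 CPM in DMSO + LPS and 108 and 103 CPM at 32 µM. Feedback inhibitors had 4 lower and 1 higher among 22 tested, but only 1 or 2 calls stood when any 1 of the 4 libraries was left out. Nr4a1, an immediate early nuclear receptor of that list, was lower at −0.84 ± 0.10. Dusp2, the single call among 11 MAP kinase phosphatases, had 147 and 154 CPM in DMSO + LPS and 55.6 and 59.99 CPM at 32 µM (log2 fold change −1.38 ± 0.065, adjusted p = 9.25e-06). Among 28 early response factors 5 were lower and 1 higher. The higher one, Egr2 (0.59 ± 0.11), lost its call in 10 of 14 alternatives, DESeq2 and 3 of the 4 fits that leave out a library among them. Of the lower ones, Maf, a transcription factor that controls Il10, was lower at −2.24 ± 0.16 from a level under 5 CPM.

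MHC class I genes and their processing machinery had 10 of 28 tested members lower and 0 higher (median −0.46). Tap1, the peptide transporter subunit, had 132 and 129.6 CPM in DMSO + LPS and 46.3 and 42.7 CPM at 32 µM (log2 fold change −1.56 ± 0.064, adjusted p = 5.41e-06), and the immunoproteasome subunits Psmb9 and Psmb10 were at −1.51 ± 0.15 and −1.27 ± 0.10. Of the 34 tested constitutive proteasome genes 0 were called (0 also by DESeq2 on 10 libraries, 5 at an unadjusted p under 0.05). Class II genes and their processing had 0 calls among 8 tested (0 by DESeq2 on 10 libraries, 3 at an unadjusted p under 0.05). Costimulatory and activation molecules had 6 lower and 2 higher among 17. Cd86, the ligand of Cd28, had 4.8 and 4.26 CPM in DMSO + LPS and 1.23 and 1.15 CPM at 32 µM (log2 fold change −1.93 ± 0.16, adjusted p = 0.000164), and Havcr2 (Tim-3) had 114 and 106 CPM in DMSO + LPS and 186 and 191 CPM at 32 µM (log2 fold change 0.78 ± 0.058, adjusted p = 9.98e-05). Of 36 TREM, lectin, Fc and scavenger receptors 10 were lower and 1 higher. Siglec1, a sialic acid receptor of interferon-exposed macrophages, had 70.9 and 65.0 CPM in DMSO + LPS and 17.6 and 17.3 CPM at 32 µM (log2 fold change −1.96 ± 0.057, adjusted p = 1.13e-06). Trem2, a lipid-sensing receptor, went up to 155 and 140.2 CPM from 78.1 and 81.6 (log2 fold change 0.89 ± 0.068, adjusted p = 0.00011), and DMSO held 307 and 289 CPM.

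For antioxidant defence and detoxification, across 6 lists, 114 genes were tested. Of these, 21 were called higher (18.4%) and 3 lower (2.63%), against 1.26% and 2.91% of all genes tested. The median log2 fold change was 0.14. Both committed subunits of glutathione synthesis were higher. Gclc, the catalytic subunit of glutamate-cysteine ligase, had 121 and 115 CPM in DMSO + LPS and 217 and 249 CPM at 32 µM (log2 fold change 0.98 ± 0.11, adjusted p = 0.00107), and Gclm, its modifier, had 362 and 366 CPM in DMSO + LPS and 637 and 706 CPM at 32 µM (log2 fold change 0.88 ± 0.071, adjusted p = 0.000154). Slc7a11, which imports cystine for this pathway, had 906 and 829 CPM in DMSO + LPS and 993 and 1093 CPM at 32 µM and was not called (0.27 ± 0.10). Srxn1, the sulfiredoxin that repairs overoxidized peroxiredoxins, had 704 and 693 CPM in DMSO + LPS and 1189 and 1191 CPM at 32 µM (log2 fold change 0.77 ± 0.037, adjusted p = 9.42e-06). Txnrd1 and Gsr, the reductases of thioredoxin and glutathione, passed the adjusted p below the 1.5-fold limit, at 0.56 ± 0.057 and 0.45 ± 0.053. Glrx, a glutaredoxin, was lower (−0.78 ± 0.076).

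Gsta1, an alpha-class glutathione transferase, had the highest fold change of all called genes, from a very low level. It had 0.646 and 0.831 CPM in DMSO + LPS and 7.07 and 7.26 CPM at 32 µM (log2 fold change 3.28 ± 0.27, adjusted p = 0.000182), and Gsta2 and Gsta3 were at 2.32 ± 0.38 and 2.89 ± 0.34 with under 5 CPM each. The call on Gsta2 was lost without either DMSO + LPS library. Gsta4, at 3.61 ± 1.71, was under 0.3 CPM in these libraries and was not called. Better expressed members were Gstm1 and Mgst2, with 13.0 and 15.3 CPM in DMSO + LPS and 28.8 and 27.1 CPM at 32 µM for Mgst2 (log2 fold change 0.98 ± 0.12, adjusted p = 0.00136). Of 15 transferases tested 5 were higher and 1 lower, and 2 calls were left when genes under a mean of 5 CPM were not tested. The alpha-class genes are close in sequence, so reads may have been split between them.

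Quinone, aldehyde and peroxide detoxification had 7 higher and 0 lower calls among 29 tested (median 0.28). Besides Nqo1, these were Akr1b8 and Akr1b3, reductases of lipid aldehydes, Abcc4, an export pump, Cbr3, Cat and Ugt1a7c. Akr1b8 had 349 and 356 CPM in DMSO + LPS and 823 and 761 CPM at 32 µM (log2 fold change 1.17 ± 0.069, adjusted p = 3.13e-05), and Abcc4 had 81.8 and 75.7 CPM in DMSO + LPS and 151 and 162 CPM at 32 µM (log2 fold change 0.99 ± 0.072, adjusted p = 9.35e-05). In NADPH production Taldo1, the transaldolase of the pentose phosphate pathway, had 429 and 438 CPM in DMSO + LPS and 769.5 and 744 CPM at 32 µM (log2 fold change 0.80 ± 0.058, adjusted p = 9.19e-05). The first enzyme of that pathway, G6pdx, was at 0.20 ± 0.070 and was not called. Heme breakdown and iron handling had 2 higher and 1 lower calls among 19 tested (median 0.17), against 1.26% and 2.91% of all genes tested. The classic Nrf2 target Hmox1 had 1242 and 1263 CPM in DMSO + LPS and 1736 and 1629 CPM at 32 µM and a log2 fold change of 0.43 ± 0.055 (adjusted p = 0.00203), below the 1.5-fold limit. Blvrb, biliverdin reductase B, was called higher (0.95 ± 0.11), as was the heme transporter Slc48a1 (0.77 ± 0.052). The lower gene was Cp, the ferroxidase ceruloplasmin, with 1.08 and 0.767 CPM in DMSO + LPS and 0.143 and 0.133 CPM at 32 µM (log2 fold change −2.73 ± 0.38, adjusted p = 0.00296). Among 10 genes of Nrf2, Keap1 and partners, Bach1, a repressor that competes with Nrf2, was the single call (log2 fold change 0.60 ± 0.070, adjusted p = 0.00116), and it was lost without replicate 2 of either group. Nfe2l2, which encodes Nrf2, had 132 and 128 CPM in DMSO + LPS and 169 and 179 CPM at 32 µM (0.42 ± 0.051, adjusted p = 0.00152) and was below the fold limit.

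The antioxidant response element was searched in its core form, TGACNNNGC, on either strand in the same windows. Shown are the 3 genes called higher at 5 CPM or more with the smallest p and a match before the start. The windows are chr4:116685349-116685598 (plus strand) for Prdx1, chr14:51913489-51913738 (minus strand) for Ndrg2 and chr7:3502625-3502874 (minus strand) for Tarm1, again in the direction of transcription with matches in capitals. Ndrg2 belongs to a family of stress-regulated cytosolic proteins, and Tarm1 is an activating receptor of the immunoglobulin superfamily.
Prdx1: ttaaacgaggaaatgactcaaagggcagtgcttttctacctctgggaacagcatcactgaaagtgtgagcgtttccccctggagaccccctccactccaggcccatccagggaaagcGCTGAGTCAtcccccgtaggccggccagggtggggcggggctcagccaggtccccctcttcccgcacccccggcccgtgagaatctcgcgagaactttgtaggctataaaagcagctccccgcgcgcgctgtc
Ndrg2: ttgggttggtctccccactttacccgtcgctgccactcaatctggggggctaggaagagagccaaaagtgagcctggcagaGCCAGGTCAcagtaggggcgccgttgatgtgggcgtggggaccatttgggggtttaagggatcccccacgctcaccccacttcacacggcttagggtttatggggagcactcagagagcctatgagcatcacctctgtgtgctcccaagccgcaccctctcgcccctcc
Tarm1: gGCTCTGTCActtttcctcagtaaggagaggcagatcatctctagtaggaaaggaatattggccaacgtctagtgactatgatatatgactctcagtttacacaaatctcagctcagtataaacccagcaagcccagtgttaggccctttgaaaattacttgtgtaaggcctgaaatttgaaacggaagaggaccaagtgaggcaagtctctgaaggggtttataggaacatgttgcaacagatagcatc

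All 3 matches are on the other strand, beginning 133, 169 and 249 bases before the starts of Prdx1, Ndrg2 and Tarm1. The Prdx1 match overlaps an AP-1 site, TGANTCA, and such overlaps were found for 5 of 142 genes called higher (3.52%), 3 of 298 called lower (1.01%) and 51 of 10066 tested (0.507%). The antioxidant core was in 22.5% of genes called higher, 16.8% of those called lower, 17.0% of genes tested and 14.0% of all genes, again of those with a window. In the called members of the 6 redox lists it was in 5 of 21 promoters, those of Abcc4, Gclm, Gsta3, Prdx1 and Srxn1. The window of Nqo1 held no match, which says only that these letters are not within it. AP-1 sites were in 14.1% of genes called higher, 15.4% of genes called lower and 6.48% of genes tested. CCAAT boxes were in 39.4%, 37.2% and 42.9% in the same order, and heat-shock elements, GAA, any 2 bases, TTC, any 2 bases and GAA, in 0.704%, 0.671% and 59 of 10066 promoters.

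A few genes on the lipid lists had large changes. Plin2, which coats lipid droplets, had 119.8 and 122 CPM in DMSO + LPS and 476 and 459 CPM at 32 µM (log2 fold change 1.95 ± 0.049, adjusted p = 5.21e-07), against 161 and 151 CPM in DMSO. It was the single higher gene among 22 tested for lipid droplets and fatty acid uptake. The fatty acid carriers Fabp4 and Fabp5 were lower, with 16.3 and 17.1 CPM in DMSO + LPS and 5.99 and 4.53 CPM at 32 µM for Fabp4 (log2 fold change −1.66 ± 0.14, adjusted p = 0.000184) and −0.84 ± 0.12 for Fabp5. Cpt1a, which commits fatty acids to mitochondrial oxidation, had 58.1 and 56.9 CPM in DMSO + LPS and 145 and 152 CPM at 32 µM (log2 fold change 1.37 ± 0.047, adjusted p = 3.09e-06). It was the single call among 33 genes of fatty acid oxidation (median 0.035), near the 4.17% called over all genes tested. DMSO held 121 and 128 CPM of Cpt1a. Pcx, the pyruvate carboxylase, was likewise the single call among 23 genes of the TCA cycle list (median −0.027). It had 18.7 and 17.3 CPM in DMSO + LPS and 50.2 and 48.8 CPM at 32 µM (log2 fold change 1.46 ± 0.069, adjusted p = 9.25e-06). Lipa, the lysosomal lipase that frees cholesterol and fatty acids, had 702 and 674 CPM in DMSO + LPS and 1202 and 1226 CPM at 32 µM (log2 fold change 0.82 ± 0.039, adjusted p = 9.42e-06). Enpp2 (autotaxin), which makes lysophosphatidic acid, and Plpp3, which degrades it, were both among the 15 highest. Enpp2 was listed at 0 in DMSO and had 2.2 and 1.96 CPM in DMSO + LPS and 9.48 and 8.69 CPM at 32 µM (log2 fold change 2.12 ± 0.12, adjusted p = 7.67e-05), and Plpp3 had 7.14 and 7.13 CPM in DMSO + LPS and 18.6 and 20.9 CPM at 32 µM (log2 fold change 1.47 ± 0.13, adjusted p = 0.00022).

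Sterol synthesis genes lay below 0 in 24 of 26 tested members (median −0.32), against a median of 0.0082 over all genes, but only 2 passed the 1.5-fold limit. These were Insig1, which retains the sterol sensor in the endoplasmic reticulum, with 195 and 201 CPM in DMSO + LPS and 119 and 139 CPM at 32 µM (log2 fold change −0.62 ± 0.10, adjusted p = 0.00525), and Acat2, which makes acetoacetyl-CoA (−0.61 ± 0.057). The call on Insig1 was lost without replicate 2 of DMSO + LPS or replicate 1 at 32 µM. The list's median lay between −0.34 and −0.30 in the other fits. Fatty acid synthesis genes had 0 calls among 11 (0 by DESeq2 on 10 libraries, 4 at an unadjusted p under 0.05).

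**Figure D3:**
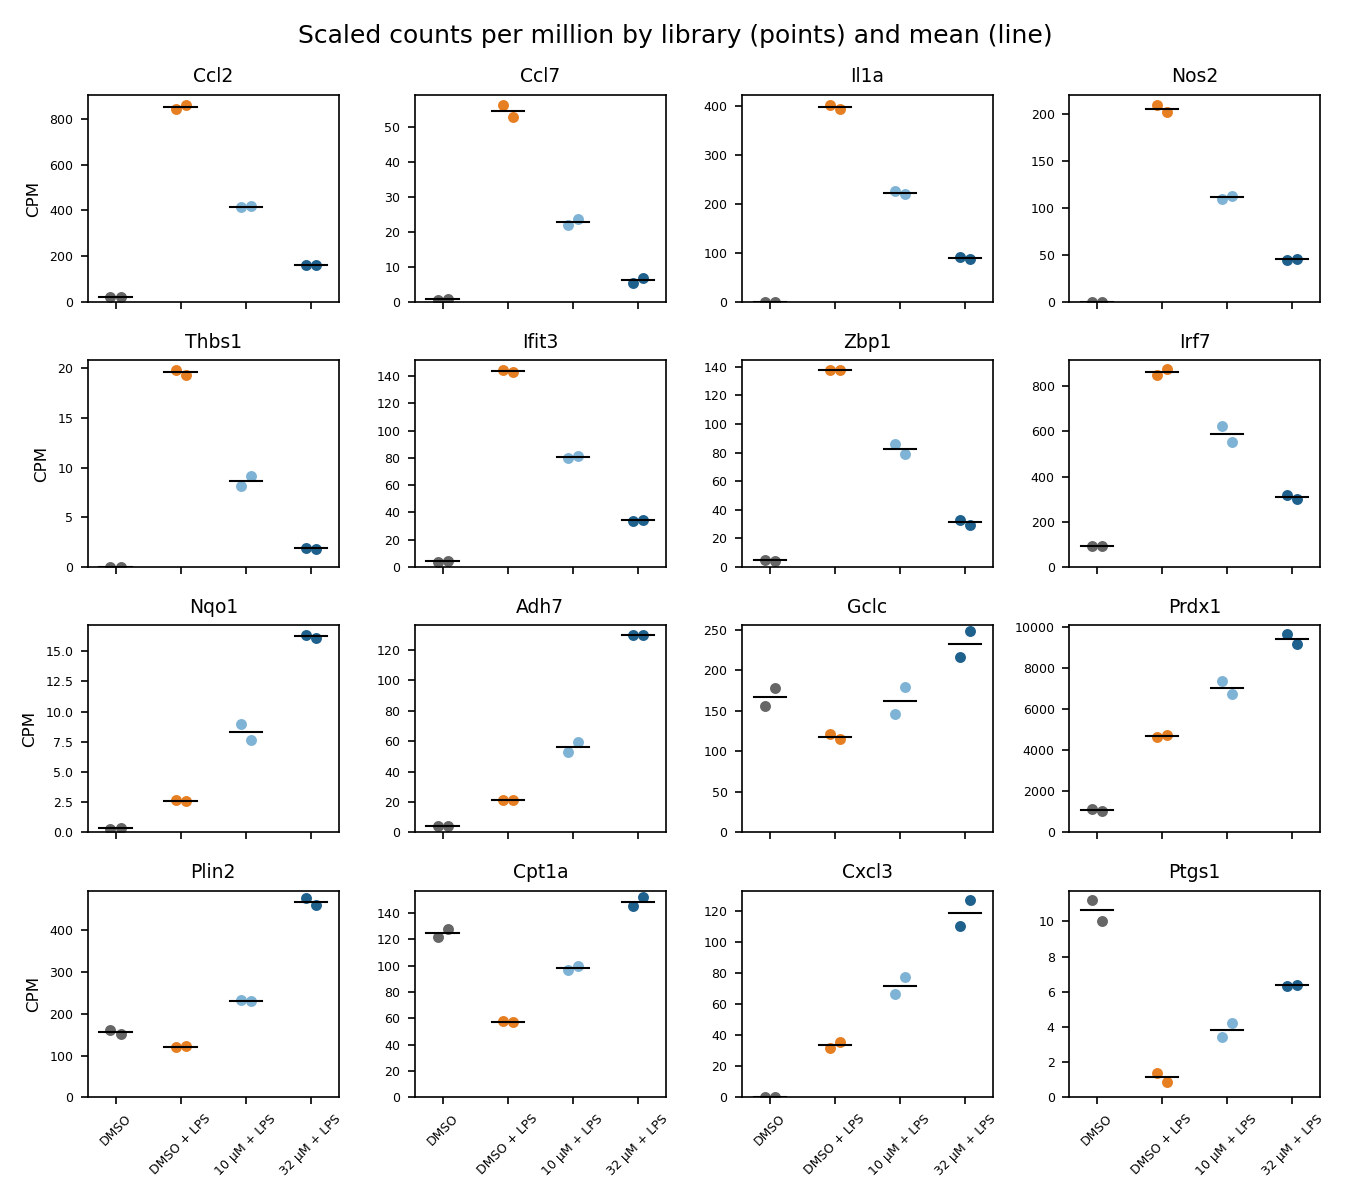
CPM (y axis, from 0) of 16 genes in DMSO, DMSO + LPS, 10 µM + LPS and 32 µM + LPS (x axis), with 1 point per library and a line at the mean of 2. The 32 µM libraries lie below DMSO + LPS in the upper 8 panels and above it in the lower 8, and their 2 points are close together, as in Adh7 with 129.7 and 130.0 CPM.

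Mitosis and DNA replication genes lay mostly on opposite sides of 0 and below the fold limit. Of 40 mitosis genes 39 lay above 0 (median 0.32), with library medians of 0.25 and 0.34, and 5 were called higher and 0 lower. These were Nusap1, Prc1, Plk1, Cdc20 and Ube2c, which act in spindle assembly and anaphase. Cdc20, the activator of the anaphase-promoting complex, had 28.5 and 27.5 CPM in DMSO + LPS and 43.1 and 44.9 CPM at 32 µM (log2 fold change 0.65 ± 0.054, adjusted p = 0.000179), far below the 97.9 and 98.8 CPM of DMSO. Plk1 was lost without replicate 1 of DMSO + LPS and Prc1 without replicate 2 at 32 µM. The median of the list stayed between 0.25 and 0.35 in every other fit, scalings included. Of 40 DNA replication genes 34 lay below 0 (median −0.15) and 1 was called, the helicase subunit Mcm6, with 64.3 and 67.2 CPM in DMSO + LPS and 39.8 and 44.0 CPM at 32 µM (log2 fold change −0.65 ± 0.061, adjusted p = 0.00034). Without replicate 1 at 32 µM Mcm6 was not called, and without replicate 2 at 32 µM or replicate 2 of DMSO + LPS the list had 2 calls. Ccnd1, cyclin D1, was lower with 142 and 137 CPM in DMSO + LPS and 83.1 and 78.9 CPM at 32 µM (log2 fold change −0.78 ± 0.047, adjusted p = 3.26e-05).

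**Figure D4:**
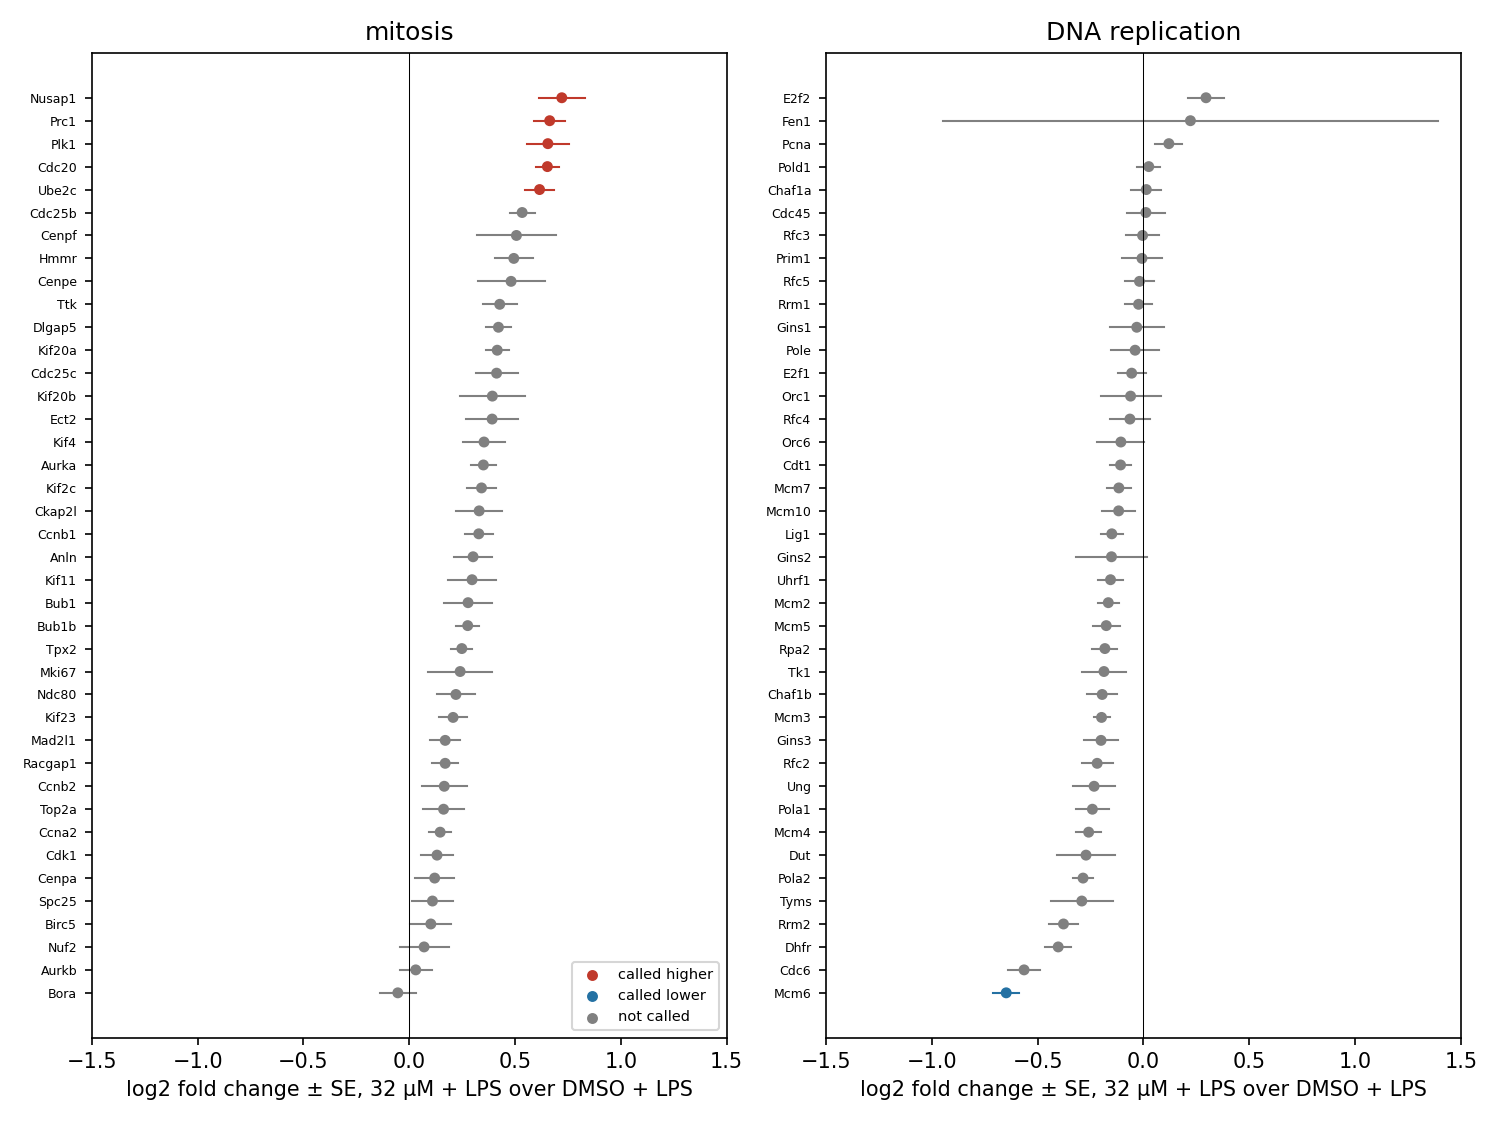
Log2 fold change ± SE (x axis, 32 µM + LPS over DMSO + LPS) of each tested member (y axis) of the mitosis list, left, and the DNA replication list, right. Mitosis genes lie right of 0 except Bora, with 5 called higher (red), while 34 of 40 replication genes lie left of 0 and only Mcm6 was called (blue), and Fen1 has by far the widest error.

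Among the gene lists, the medians of the 2 libraries at 32 µM lay farthest apart for ribosomal RNA features and oxidative phosphorylation. The 63 nuclear-encoded subunits of oxidative phosphorylation had 0 calls in edgeR and in DESeq2 on 10 libraries (1 at an unadjusted p under 0.05). Their median log2 ratio to the DMSO + LPS mean was 0.23 in replicate 1 and −0.38 in replicate 2. The 6 ribosomal RNA features had medians of −0.21 and 2.43. Over all 1530 genes whose longest transcript is under 1000 bases the medians were 0.092 and −0.14, and 2.88% of them were called, against 4.66% of genes from 1000 to 2000 bases. The part of RNA quality or library preparation in these values was not tested. The interferon and mitosis lists, whose library medians are given above, lay on the same side of 0 in both libraries. Glycolysis, autophagy, nuclear receptors, p53 targets and glucocorticoid-induced genes had 0 calls in edgeR and in DESeq2 on 10 libraries, with 13, 8, 5, 8 and 6 genes at an unadjusted p under 0.05. Their medians lay between −0.062 and 0.098. Heat-shock chaperones had 1 call among 23, near the 4.17% called over all genes tested. This was Dnajb4 (0.64 ± 0.10), which was lost on leaving out any 1 of 3 libraries.

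**Figure D5:**
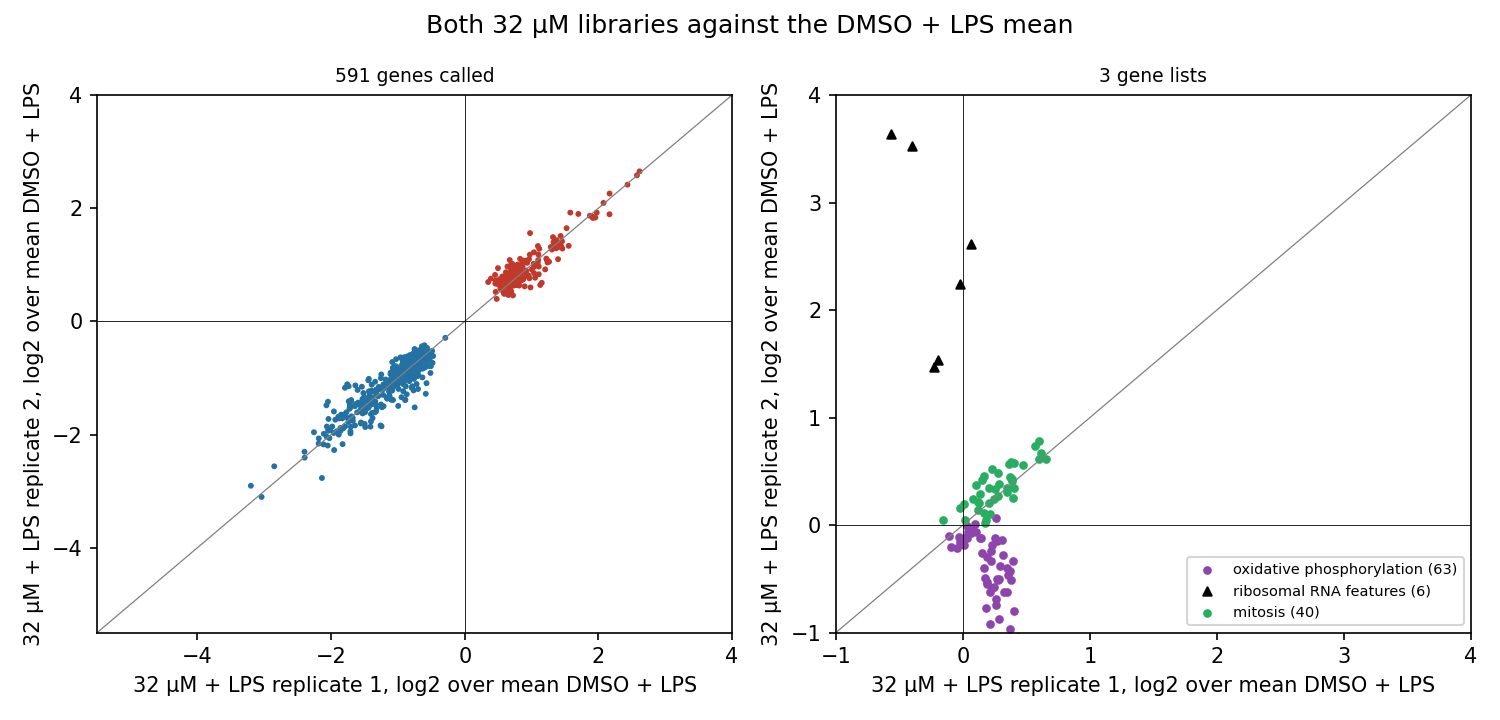
Log2 ratio to the DMSO + LPS mean in replicate 1 (x axis) and replicate 2 (y axis) at 32 µM, for the 591 called genes (left, red higher and blue lower) and for 3 lists (right), on log2(CPM + 0.5), with the grey line where both are equal. The called genes lie along the line, which a call from a small spread favours, whereas the 6 ribosomal RNA features (triangles) are far above it and the 63 oxidative phosphorylation genes (purple) mostly below it.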

How the data were processed

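RNA of RAW264.7 cells was sequenced in 5 groups of 2 libraries. The deposited table held raw counts per gene. Per the submitters' processing notes the authors used Trimmomatic, FastQC, STAR and DESeq2 with build mm10, without versions. The counting tool and any use of strand are not given in the sources used here. Genes were tested with edgeR 4.0.16 in R 4.3.3 (quasi-likelihood, TMM, filterByExpr with a minimum count of 10, all 10 libraries in 1 fit, 1 mean per group, Benjamini-Hochberg adjustment). A gene was called with an adjusted p below 0.05 and at least a 1.5-fold change. CPM used TMM-scaled totals. List medians were taken over edgeR's log2 fold changes of the tested members. For library medians, each library was set against the DMSO + LPS mean on log2(CPM + 0.5). Alternatives were other scalings and filters, DESeq2 1.42.0, 4 libraries alone, each library left out, replicate blocks and a 2-fold limit. The code was tested on simulated data. Some genes are not reported here. The comparison and the gene lists were chosen with earlier results of these data known. Named genes were the 15 highest and 15 lowest called genes with a mean of at least 5 CPM, the 5 smallest p, up to 4 called members per list and direction, further members where needed to account for a list, and the marker and ribosomal RNA checks. Promoters came from RefSeq (GRCm38.p6). The 4 libraries compared held 47162631 to 58976377 counts each, and every group had 2 libraries.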

Additional observations from a re-analysis of the deposited data

How the results depend on the processing

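Requiring 2-fold instead of 1.5-fold gave 317 calls, 69 higher and 248 lower. In the other alternatives the counts stayed within 1.5 times the 591, 179 and 412 given above, and 0 of the 151 genes named for a call changed sign. The scalings gave 590 calls by DESeq2 size factors and 590 by library size alone, no count filter gave 602, a mean of at least 5 CPM gave 423 (9470 genes tested), and removal of ribosomal RNA features gave 593. DESeq2 called 596 genes on 10 libraries and 563 on 4, and edgeR on 4 libraries called 556. Leaving out 1 library gave 453 to 532 calls, 131 to 172 higher and 321 to 368 lower, with the lowest total without replicate 1 of DMSO + LPS. These alternatives kept between 70.6% and 100% of the 591 genes. Replicate numbers are not stated to pair cultures, and the deviations of same-numbered libraries of the 2 groups correlated at −0.225 over genes. The same correlation of 32 µM was 0.707 with DMSO, 0.559 with 10 µM and 0.215 with 3.2 µM. The fit with the replicate number as a block gave 614 calls, 183 higher and 431 lower. A crossed pairing, chosen after seeing the data, gave 655 calls, 197 higher and 458 lower. For these 151 genes, recomputed values stayed on the same side of the test 1991 times and lost the call 92 times, and the cause was not tested. Other list members named in the text were not recomputed singly. Of the recomputed list medians, 183 moved by more than 1 SD of the library medians at 32 µM and 733 did not, and of the list counts 50 moved by over 1.5 times and 866 did not. With windows of only the 250 bases before the start, 11 of 24 motif shares, all over genes tested or all genes, fell below their 95% interval, and the NF-κB share of genes called higher was 0.704%. Genes under 1 CPM, such as Il33 and Gsta4, had wide standard errors at this depth.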

Other observations

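Except for Slc28a2, the following genes lie outside the named-gene rule and the lists, and were chosen after their values were seen. Slc28a2, a nucleoside importer, had 29.2 and 28.1 CPM in DMSO + LPS and 7.03 and 5.53 CPM at 32 µM (log2 fold change −2.19 ± 0.10, adjusted p = 9.25e-06). Upp1, uridine phosphorylase, had 18.8 and 19.3 CPM in DMSO + LPS and 5.15 and 4.89 CPM at 32 µM (log2 fold change −1.92 ± 0.10, adjusted p = 1.59e-05), and Gda, guanine deaminase, had 12.4 and 10.7 CPM in DMSO + LPS and 5.21 and 6.06 CPM at 32 µM (log2 fold change −1.04 ± 0.12, adjusted p = 0.00121). Hdc, which makes histamine, had 25.3 and 24.1 CPM in DMSO + LPS and 6.36 and 7.17 CPM at 32 µM (log2 fold change −1.87 ± 0.10, adjusted p = 1.59e-05). Mir155hg, the host transcript of its microRNA, had 12.3 and 12.5 CPM in DMSO + LPS and 3.76 and 5.09 CPM at 32 µM (log2 fold change −1.49 ± 0.15, adjusted p = 0.000593), and Hcar2, a receptor for niacin and β-hydroxybutyrate, had 66.8 and 63.8 CPM in DMSO + LPS and 23.7 and 25.1 CPM at 32 µM (log2 fold change −1.42 ± 0.11, adjusted p = 0.000132). Marcks, an actin-binding substrate of protein kinase C, had 18.1 and 19.2 CPM in DMSO + LPS and 5.31 and 6.37 CPM at 32 µM and 0.102 and 0.211 CPM in DMSO.

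On the higher side, Osgin1, an oxidative stress response gene, had 14.8 and 15.5 CPM in DMSO + LPS and 39.1 and 38.2 CPM at 32 µM (log2 fold change 1.35 ± 0.083, adjusted p = 3.39e-05). The Notch ligand Jag1 had 57.2 and 58.0 CPM in DMSO + LPS and 124 and 131 CPM at 32 µM (log2 fold change 1.15 ± 0.070, adjusted p = 3.26e-05), the semaphorin co-receptor Nrp1 had 30.3 and 26.7 CPM in DMSO + LPS and 55.9 and 61.5 CPM at 32 µM (log2 fold change 1.04 ± 0.090, adjusted p = 0.00022), and the growth factor Pdgfa had a log2 fold change of 0.88 ± 0.064. Met, the receptor of hepatocyte growth factor, had 5.87 and 4.96 CPM in DMSO + LPS and 9.48 and 9.64 CPM at 32 µM (log2 fold change 0.82 ± 0.11, adjusted p = 0.00275). Ahrr, a repressor of the aryl hydrocarbon receptor, had 3.93 and 3.45 CPM in DMSO + LPS and 6.93 and 8.49 CPM at 32 µM (log2 fold change 1.06 ± 0.18, adjusted p = 0.00696). The long noncoding RNA Neat1 had 137 and 142 CPM in DMSO + LPS and 306 and 218 CPM at 32 µM (log2 fold change 0.91 ± 0.18, adjusted p = 0.0179), and its 2 libraries at 32 µM lay farther apart than those of DMSO + LPS. Among genes called, 133 of the 179 higher and 214 of the 412 lower ones belonged to none of the lists.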
